A study of Mus musculus with 16 samples.

Results

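The genes described here are the histone genes that can be read one at a time on these arrays. They are the genes whose symbol begins with H2ac, H2bc, H3c, H4c or H1f followed by a digit, the current names of the canonical core histones and of the linker histones. A gene was taken when a probe set carried its symbol and no other, and 30 of the 19938 genes measured met the rule. They comprised 8 linker histone H1 genes, 4 H2A, 9 H2B, 3 H3 and 6 H4 genes, and each had 1 probe set. Of them, 23 lie on chromosome 13, 4 on chromosome 3, 2 on chromosome 6 and 1 on chromosome 15 in the RefSeq annotation. The name "replication-dependent" does not cover all of them: H1f6, H1f7, H2ac1 and H2bc1 are testis types, H1f8 is the oocyte linker histone and H1f10 is a replacement linker histone, which leaves 24.

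Core histones H2A, H2B, H3 and H4 form the protein spool around which DNA is wrapped, and H1 binds where the DNA enters and leaves it. Replication-dependent histone genes lie in clusters, have no introns, and are transcribed mainly in S phase, when new DNA has to be packed. Most of their mRNAs end in a stem-loop bound by SLBP in place of a poly(A) tail, and they are degraded when DNA synthesis stops. Their RNA is therefore commonly read as a mark of cells that replicate DNA.

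The RNA came from type 1 conventional dendritic cells (cDC1), the dendritic cells that present antigen of dead cells to CD8 T cells, sorted from C57BL/6 mice. The mice were heterozygous (Het) or knockout (KO) for Wdfy4, which encodes a protein that cDC1 need for cross-presentation of cell-associated antigen. All mice had received regressor tumours in the flank 6 days earlier, and the cells came from the inguinal node that drains the tumour, whose cDC1 the labels call activated, or from a non-draining inguinal node, whose cDC1 they call unactivated. Genotype and node together made 4 groups of 4 arrays, 16 in all. No group had mice without a tumour, and Het mice, not wild-type mice, were the controls. Whether each array of a group stands for its own mouse is not stated, and the p-values then measure only the spread between the samples hybridised, technical spread included.

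The values are linear intensities from microarrays, and differences are given as log2(intensity + 1), so that a difference of 1 is a doubling and small intensities are understated. A gene counted as called at a limma p under 0.05 after Benjamini-Hochberg adjustment over all 19938 genes. Array medians ranged from 38.6 to 40.8. The 15 cDC1 markers summed to between 16470 and 25938 per array, with Xcr1, Clec9a and Irf8 measured in every group. The defining T cell and B cell markers were lower than Xcr1, Clec9a and Irf8 but not at 0. Cd3g, the brightest T cell marker measured, had group means of 417 to 614. These were above the group means of some dimmer cDC1 markers, such as Itgae (211 to 276) and Zbtb46 (154 to 159). The Wdfy4 probe set read between 2278 and 3450 in the Het arrays and between 1786 and 3165 in the KO arrays. The deleted part of Wdfy4 is not given in the sources used here, so this overlap is no check of the genotype labels.

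Promoter sequences are shown for 4 genes that the results turn on, to let the histone classes be seen in the DNA. RefSeq promoters were matched for 26 of the 30 genes, and the 250 bases before each start were searched on both strands for 5 motifs. The CCAAT box, the site of NF-Y, was searched as CCAAT and its reverse ATTGG. The TATA box was searched as TATAAA and in reverse as TTTATA, and the octamer bound by POU2F1 as ATTTGCAT and in reverse as ATGCAAAT. The AC box described for H1 genes was searched as AAACACA and in reverse as TGTGTTT, and the last motif was the core of the H4 subtype element, in capitals at the end of the H4c8 sequence, a form chosen after that sequence was seen. No 2 of these motifs overlapped in the sequences shown, and capitals mark the motifs. All sequences are 5′ to 3′ on the gene's strand, from the RefSeq annotation of GRCm38.p6, and end at the base before the start. H3c4, on the plus strand at chr13:23575513-23575762, and H4c8, on the plus strand at chr13:23530794-23531043, are the core H3 and H4 genes of largest size of difference. H2bc3, on the plus strand at chr13:23746484-23746733, and H2bc22, on the plus strand at chr13:21787238-21787487, are 2 H2B genes described with their values further on.
H3c4: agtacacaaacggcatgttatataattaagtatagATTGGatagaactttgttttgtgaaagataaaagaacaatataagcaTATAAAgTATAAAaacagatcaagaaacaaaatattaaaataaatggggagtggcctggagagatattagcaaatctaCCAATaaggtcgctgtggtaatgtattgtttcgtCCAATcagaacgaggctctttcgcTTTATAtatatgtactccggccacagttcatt
H4c8: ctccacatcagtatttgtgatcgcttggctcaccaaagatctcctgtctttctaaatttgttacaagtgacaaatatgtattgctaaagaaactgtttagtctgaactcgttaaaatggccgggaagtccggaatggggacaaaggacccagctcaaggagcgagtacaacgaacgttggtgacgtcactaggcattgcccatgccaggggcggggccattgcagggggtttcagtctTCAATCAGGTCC
H2bc3: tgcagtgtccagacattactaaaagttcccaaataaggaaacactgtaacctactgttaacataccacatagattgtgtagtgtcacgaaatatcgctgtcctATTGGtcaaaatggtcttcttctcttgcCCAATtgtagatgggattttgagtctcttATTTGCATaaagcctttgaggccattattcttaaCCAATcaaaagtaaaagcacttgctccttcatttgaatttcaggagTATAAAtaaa
H2bc22: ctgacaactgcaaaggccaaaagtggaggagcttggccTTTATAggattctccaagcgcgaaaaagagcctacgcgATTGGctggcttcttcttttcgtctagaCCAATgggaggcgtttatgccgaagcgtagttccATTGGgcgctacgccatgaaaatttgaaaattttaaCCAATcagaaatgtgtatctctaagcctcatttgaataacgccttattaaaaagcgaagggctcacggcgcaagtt

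The octamer was held by 3 of 4 H2A promoters and 5 of 7 H2B promoters, and by none of the 8 H1, 2 H3 and 5 H4 promoters; 1.60% of all 32851 promoters of the same length held it. The windows of H2ac1 and H2bc1 overlap on opposite strands, as do those of H2ac8 and H2bc8, and each pair shares 1 octamer, so the 8 promoters hold 6 distinct octamers. In H2bc3 it starts 90 bases before the gene's start, between CCAAT boxes, and in the H2bc22 window these letters were not found. A CCAAT box was found in 20 of the 26 promoters (33.9% of all promoters) and a TATA box in 14 (12.4% of all). The AC box was found in 4 of 8 H1, 2 of 4 H2A and 2 of 7 H2B promoters. None of the 2 H3 and 5 H4 promoters held it, which made 8 of the 26 in all, against 6.25% of all promoters. The searched form of the H4 element was found in 1 of 5 H4 promoters, that of H4c8, and in 3 of all 32851 promoters. In H4c8, from which the form was chosen, it ends at the last base before the start. The letters GGTCCGC occur in the windows of H4c3, H4c4, H4c6 and H4c9. The count is thus of the exact form only, and whether these genes hold the element was not tested. A match of letters is a description of the window and not a bound site. Promoters of H2bc4, H2bc21, H3c7 and H4c14 were not analysed here.

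None of the 30 histone genes was called in any of the 7 comparisons, and neither was any other gene (0% of 19938 genes in each). These 7 were 2 genotype comparisons (1 per node), 2 node comparisons (1 per genotype), the interaction of genotype and node, and the genotype and node differences averaged over both levels of the other factor. In simulated data for the same design, genes with a planted log2 difference were tested in the 4 simple comparisons. With a difference of 0.5, between 35% and 49% were called, and with a difference of 1, between 89% and 97%. Each simulation held many changed genes at once and independent noise, so these shares do not apply to a single changed gene or a few. The values below are therefore described, by size, error and order of arrays, below the threshold of the test.

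In Het cells, 20 of the 30 histone genes were higher in the draining than in the non-draining node, with a median difference of 0.12 against 0.01 over all genes, of which 52.8% were higher. Without the germ cell types and H1f10, 18 of 24 were higher (median 0.18). All 6 H4 genes were higher, with a median of 0.36. In limma, 7 of the 30 had an unadjusted p under 0.05, all higher, where 1.93% of all genes did so in that direction: H3c4, H4c14, H2bc3, H4c3, H4c4, H4c8 and H1f1. In KO cells the same comparison gave 17 of 30 higher and a median of 0.02, 50.7% of all genes being higher, and H4 genes had a median of -0.08. Without the germ cell types and H1f10, 16 of 24 were higher in KO cells (median 0.03). Only H2bc22 had an unadjusted p under 0.05 there, and it was higher (1.14% of all genes); none was lower at that p (0.973% of all genes). No histone gene had KO arrays that separated by node in either direction (0.848% of all genes higher, 0.592% lower).

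Between genotypes the nodes were read apart. In the non-draining node 26 of 30 histone genes were higher in KO than in Het cells, with a median of 0.13, where 51.9% of all genes were higher and their median was 0.00. Without the germ cell types and H1f10, 22 of 24 were higher (median 0.14). All 9 H2B and all 6 H4 genes were higher there. In the draining node 14 of 30 were higher, with a median of -0.01 and 49.1% of all genes higher, and 5 of the 6 H4 genes were lower. Of the 24 genes, 12 were higher there (median 0.00). Unadjusted p under 0.05 was reached by H3c4 in the non-draining node (1.3% of all genes higher at that p) and by H2bc22 in the draining node (1.69% of all genes higher), both higher in KO cells. None was lower at that p in the draining node (1.7% of all genes). The node difference in Het cells and the genotype difference in the non-draining node both use the 4 Het non-draining arrays, so low values on those arrays enter both.

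**Figure D1:**
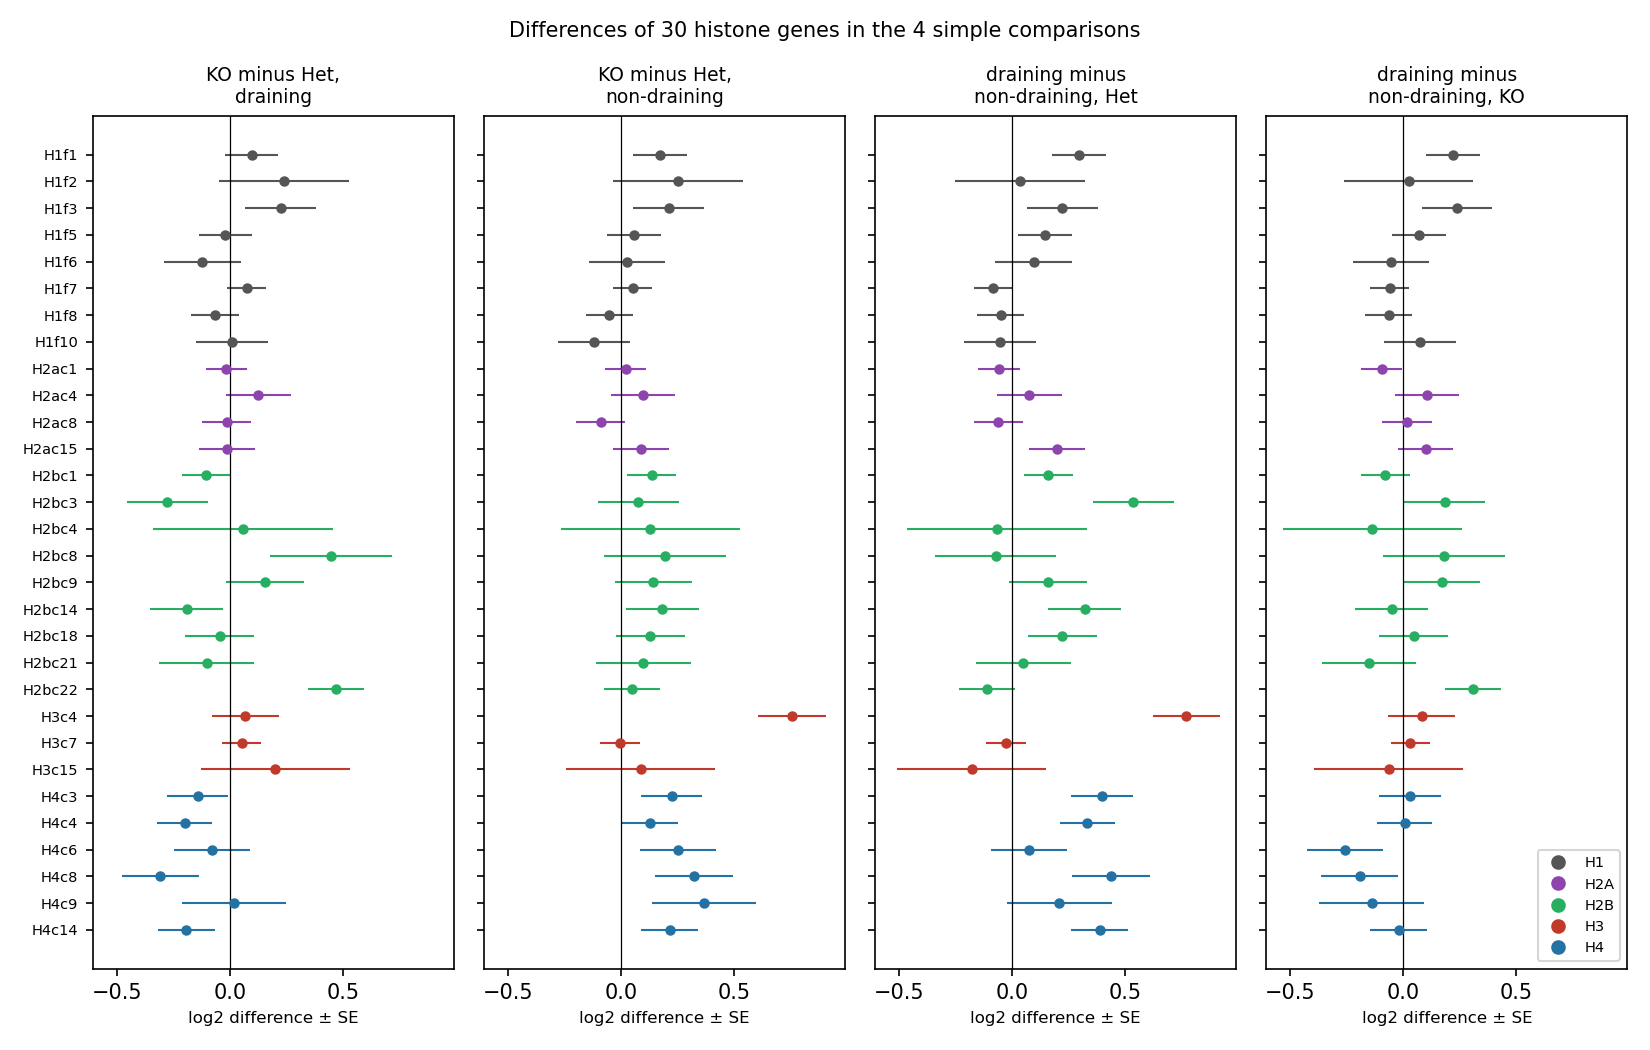
Log2 difference (horizontal axis) with its limma standard error for each of the 30 histone genes (vertical axis), coloured by class, in the 4 simple comparisons. The 6 H4 genes lie right of 0 in KO minus Het of the non-draining node and in draining minus non-draining of Het cells, and H3c4 stands at 0.76 and 0.77 in these panels; no difference passed the adjusted threshold.

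H3c4 encodes a canonical histone H3. Its intensities were 33.1, 34.5, 38.7 and 43.8 on the Het non-draining arrays and 71.1, 48.0, 67.8 and 74.1 on the Het draining arrays. The KO non-draining arrays read 54.4, 55.7, 70.4 and 77.3, and the KO draining arrays read 73.1, 63.3, 76.1 and 58.9. All 4 Het non-draining arrays were thus below all 12 others, which overlapped with each other.

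H3c4 was higher in draining than in non-draining Het cells by 0.77 ± 0.15 (SE, 4 against 4 arrays), the smallest p of all 19938 genes, yet its adjusted p in limma was 0.794. Over the alternatives that adjusted p lay between 0.149 and 1.00. It was higher in KO than in Het cells of the non-draining node by 0.76 ± 0.15, the second smallest p of all genes (limma adjusted p 1.00, between 0.206 and 1.00 over the alternatives). The exact two-sided permutation test gave 0.0286 in both cases, the smallest value that 4 against 4 arrays allow. H3c4 was among 4 histone genes whose draining and non-draining Het arrays did not overlap, all higher in the draining node (1.4% of all genes), and the only one whose KO and Het arrays of the non-draining node did not overlap (1.2% of all genes, higher).

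Among KO cells H3c4 differed by 0.08 ± 0.15 between nodes, and in the draining node by 0.07 ± 0.15 between genotypes. The interaction, the genotype difference in the draining node minus that in the non-draining node, was -0.69 ± 0.21 (limma adjusted p 1.00, rank 19 of all genes by p; 1.33% of all genes were lower at an unadjusted p under 0.05). Averaged over nodes, H3c4 was higher in KO cells by 0.41 ± 0.11, and averaged over genotypes higher in the draining node by 0.43 ± 0.11, each with an exact permutation p of 0.0155. Both averages contain the low Het non-draining group. The H3c4 probe set is named through a cDNA record only, and no RefSeq transcript is attached to it in the array annotation, so which part of the gene it reads was not tested. The symbol H3c4 is also listed on H2A probe sets that carry several symbols. Whether its own probe set reads H3 sequence alone was therefore not tested either.

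The remaining H3 genes were dim. H3c7, another canonical H3, lay between 7.39 and 9.96 on all arrays and differed by -0.03 ± 0.09 between nodes in Het cells. H3c15, a canonical H3 of the chromosome 3 cluster, lay between 14.8 and 50.2 and differed by -0.18 ± 0.33 in the same comparison and by 0.20 ± 0.33 between genotypes in the draining node, with errors wider than the differences. Both are among the 7 histone genes with a mean log2 value under 5, where RMA compresses differences.

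**Figure D2:**
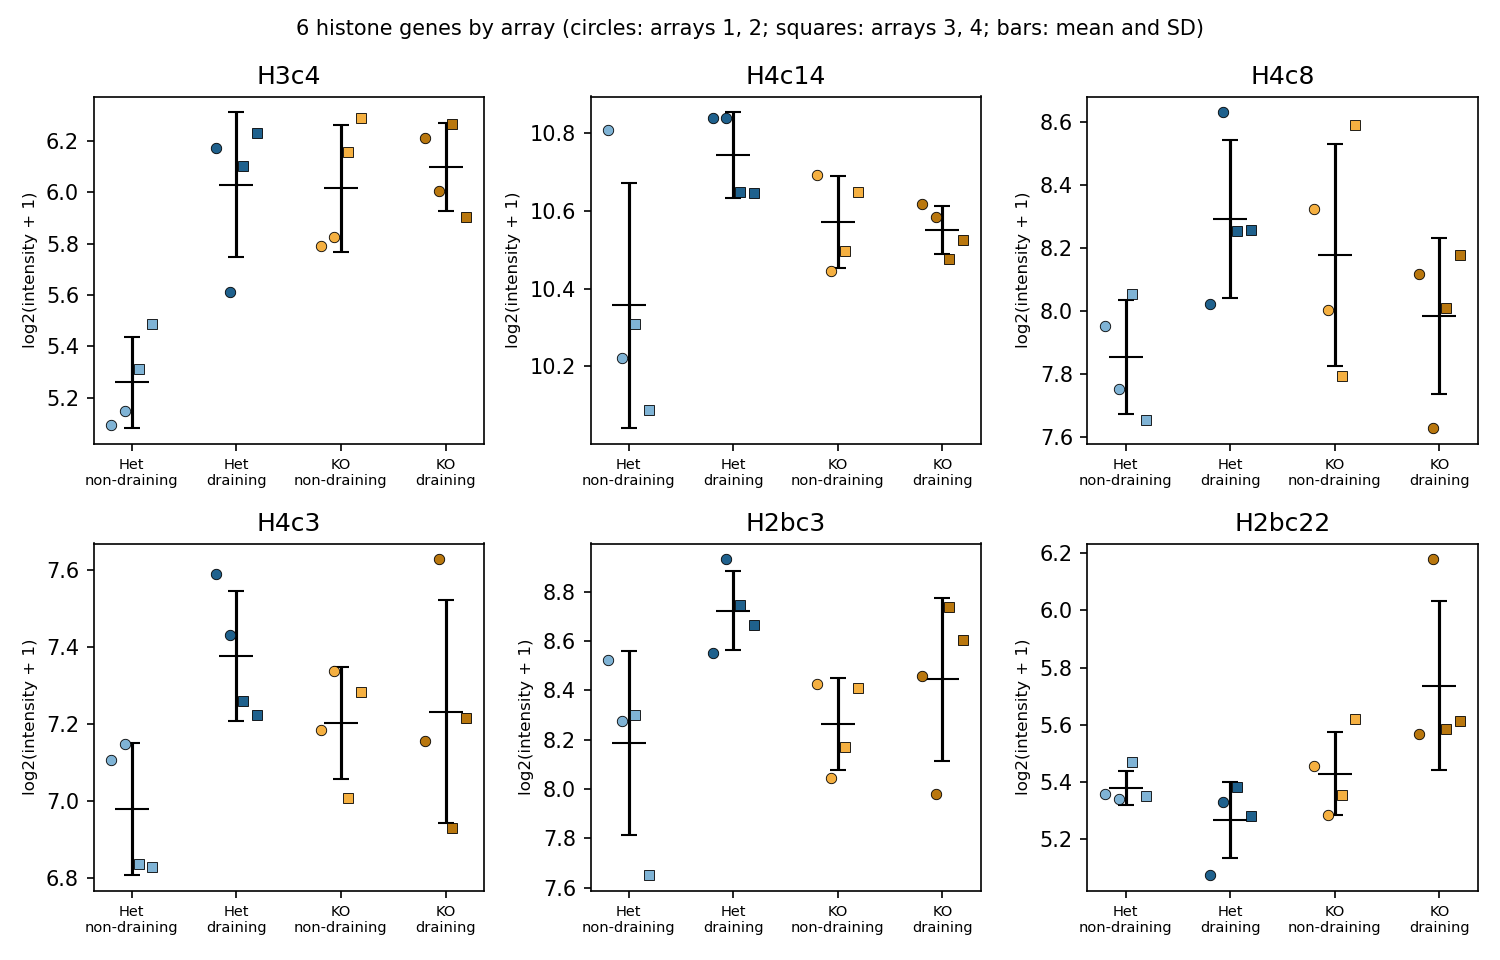
Log2(intensity + 1) of 6 histone genes (vertical axis, a scale of its own for each gene) on every array of the 4 groups (horizontal axis); circles are arrays 1 and 2, squares arrays 3 and 4, and bars show the mean and SD of 4 arrays. The H3c4 values of the Het non-draining arrays lie below those of all other arrays, and 1 KO draining array of H2bc22 stands at 6.18.

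Histone H4 is encoded by many genes for the same protein, and the 6 H4 genes measured alone were H4c3, H4c4, H4c6, H4c8, H4c9 and H4c14. H4c14 read 1832, 1831, 1605 and 1603 on the Het draining arrays and 1794, 1193, 1267 and 1087 on the Het non-draining arrays. In KO cells it read 1571, 1534, 1424 and 1472 in the draining and 1654, 1394, 1445 and 1605 in the non-draining node. Het draining arrays were above all KO draining arrays, while Het non-draining array 1 stood well above the other 3 arrays of its group.

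H4c14 was higher in draining than in non-draining Het cells by 0.39 ± 0.13 (limma adjusted p 1.00, exact permutation p 0.0857). It was lower by 0.19 ± 0.13 in KO than in Het cells of the draining node (exact permutation p 0.0286) and higher by 0.21 ± 0.13 in the non-draining node. The interaction was -0.41 ± 0.18, with a limma adjusted p of 1.00. H4c4, whose Het draining arrays read 1938, 1790, 1705 and 2144, likewise did not overlap with the KO draining arrays, at 1639, 1652, 1633 and 1648. Its difference there was -0.20 ± 0.12 (exact permutation p 0.0286), and H4c4 and H4c14 were the 2 histone genes lower in KO draining arrays without overlap (0.747% of all genes). Between nodes in Het cells H4c4 differed by 0.33 ± 0.12, with non-draining arrays at 1970, 1456, 1343 and 1307, the first of which overlapped with the draining arrays. The KO non-draining arrays of H4c4 read 1699, 1507, 1482 and 1893.

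H4c8 read 259, 395, 304 and 305 on the Het draining arrays and 246, 215, 265 and 201 on the Het non-draining arrays. The KO arrays read 277, 197, 257 and 288 in the draining and 319, 255, 221 and 384 in the non-draining node. Het arrays were thus higher on the draining side with an overlap. KO arrays overlapped too, but those at 319 and 384 in the non-draining node were above all KO draining arrays. Between nodes in KO cells the difference was -0.19, and between -0.32 and -0.06 with 1 array left out. H4c8 was lower in KO than in Het cells of the draining node by -0.31 ± 0.17 and higher in the non-draining node by 0.32 ± 0.17, which gave an interaction of -0.63 ± 0.24 (limma adjusted p 1.00, rank 125 by p). Between nodes in Het cells the difference was 0.44 ± 0.17, and the exact permutation test gave 0.0571.

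H4c3 read 192, 171, 152 and 149 on the Het draining arrays and 137, 141, 113 and 113 on the Het non-draining arrays, with no overlap. The difference was 0.40 ± 0.14 (limma adjusted p 1.00, exact permutation p 0.0286). In KO cells H4c3 read 142, 197, 121 and 148 in the draining and 145, 161, 128 and 155 in the non-draining node, and differed by 0.03 ± 0.14 between nodes. In KO cells 4 of the 6 H4 genes were lower in the draining node. The lowest difference was that of H4c6, -0.26 ± 0.17, with 239, 202, 243 and 279 in the draining and 365, 227, 217 and 374 in the non-draining node. Its Het arrays lay between 203 and 286, at 260, 246, 241 and 265 in the draining and 286, 251, 203 and 228 in the non-draining node, and did not separate by node. H4c9 differed most of the H4 genes between genotypes in the non-draining node, by 0.37 ± 0.23, and by 0.02 ± 0.23 in the draining node.

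Over the 6 H4 genes the interaction was negative for every gene, with a median of -0.36, against -0.01 over all genes, of which 47.7% were positive. Each H4 gene was set against its own mean over the 16 arrays, and the median of these deviations was taken per array. On the KO draining arrays it was -0.03, -0.17, -0.07 and 0.06, and on the KO non-draining arrays 0.09, -0.12, -0.18 and 0.35, so KO nodes overlapped. It was 0.13, 0.18, 0.07 and 0.09 on the Het draining arrays, and 0.04, -0.20, -0.28 and -0.36 on the Het non-draining arrays. Array 1 of the Het non-draining group was thus apart from the other 3 arrays of its group and below each Het draining array. Without that array the H4 median of draining minus non-draining in Het cells was 0.45, and over the 16 fits that left out 1 array it lay between 0.28 and 0.45.

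H2B is the core histone with most members here. H2bc3 read 374, 487, 429 and 405 on the Het draining arrays and 366, 308, 314 and 200 on the Het non-draining arrays, with no overlap. The difference was 0.54 ± 0.18 (limma adjusted p 1.00, exact permutation p 0.0286). KO arrays of H2bc3 read 350, 252, 425 and 388 in the draining and 343, 263, 287 and 339 in the non-draining node, and differed by 0.18 ± 0.18. In the draining node H2bc3 had the lowest KO minus Het difference of the H2B genes, -0.28 ± 0.18, and it was -0.12 without KO draining array 2.

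H2bc22, another H2B gene, read 46.5, 71.4, 47.0 and 48.0 on the KO draining arrays, all above the Het draining arrays at 32.7, 39.2, 40.7 and 37.9. The non-draining arrays read 40.05, 39.5, 43.3 and 39.8 in Het and 42.9, 37.98, 39.9 and 48.2 in KO cells. H2bc22 was higher in KO than in Het cells of the draining node by 0.47 ± 0.13 (limma adjusted p 1.00, exact permutation p 0.0286), the 1 histone gene higher there without overlap (0.838% of all genes).

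The H2bc22 values of KO draining cells leaned on array 2. Without it the difference from Het cells was 0.32 ± 0.10, and the difference from KO non-draining cells went from 0.31 ± 0.13 to 0.16 ± 0.10. The interaction, 0.42 ± 0.18, was the 1 positive interaction with an unadjusted p under 0.05 among the histone genes (0.993% of all genes), and without KO draining array 2 it was 0.27 ± 0.13. Averaged over nodes, H2bc22 was higher in KO cells by 0.26 ± 0.09 (limma adjusted p 1.00, exact permutation p 0.00898; H2bc22 and H3c4 were the 2 histone genes at an unadjusted p under 0.05 in that average, both higher, as were 1.75% of all genes).

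H2bc8 had the second largest H2B difference between genotypes in the draining node, 0.45 ± 0.27, on arrays that overlapped. It was 0.25 without KO draining array 1, 0.27 without Het draining array 2 and 0.74 without KO draining array 2. Its Het draining arrays read 126, 97.8, 175 and 194, and its KO draining arrays 296, 105, 216 and 215. The non-draining arrays read 155, 118, 147 and 190 in Het and 133, 179, 176 and 210 in KO cells. H2bc14 reached 0.32 ± 0.16 between nodes in Het cells. H2bc9, H2bc18, H2bc21 and H2bc4 differed by at most 0.22 in size in the 4 simple comparisons. H2bc1, the testis type, lay between 21.6 and 32.01 on all arrays.

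The 4 H2A genes measured alone were dim or differed little. H2ac4 lay between 10.4 and 17.7 and H2ac8 between 13.3 and 19.9. H2ac15 lay between 35.8 and 60.4 and had the largest difference of the class, 0.20 ± 0.12 between nodes in Het cells. H2ac1, the testis type, lay between 110.7 and 144 and differed by at most 0.10 in size in the 4 simple comparisons.

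Among the linker histones, H1f1 did not overlap between nodes in Het cells. It read 81.9, 88.0, 97.8 and 86.7 on the Het draining arrays and 79.2, 69.9, 81.5 and 59.2 on the Het non-draining arrays, with a narrow gap between the groups. The difference was 0.30 ± 0.12 (limma adjusted p 1.00, exact permutation p 0.0286). In KO cells H1f1 read 118, 95.9, 83.7 and 83.9 in the draining and 84.3, 82.3, 79.9 and 78.0 in the non-draining node, with a small overlap, and the difference was 0.22 ± 0.12. Averaged over genotypes H1f1 was higher in the draining node by 0.26 ± 0.08 (limma adjusted p 1.00, exact permutation p 0.00163). H1f1, H3c4, H2bc3 and H4c3 were the 4 histone genes at an unadjusted p under 0.05 in that average, all higher (1.76% of all genes).

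H1f3 had the largest node difference of the H1 genes in KO cells, 0.24 ± 0.16. It read 36.3, 43.1, 45.6 and 54.5 in the KO draining and 37.6, 29.9, 35.1 and 50.3 in the KO non-draining arrays, and 39.6, 34.2, 38.6 and 39.2 and 27.4, 31.8, 29.9 and 41.9 in the Het draining and non-draining arrays, so all groups overlapped. H1f2 had the largest differences between genotypes of the class, 0.24 ± 0.29 in draining nodes and 0.25 ± 0.29 in non-draining nodes, and both were within its error. H1f5, a main somatic linker histone, differed by 0.15 ± 0.12 between nodes in Het cells. The germ cell types H1f6, H1f7 and H1f8 and the replacement type H1f10 differed by at most 0.12 in size in the 4 simple comparisons.

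The large errors of some histone genes went with the array number. In each group the mean of arrays 3 and 4 was set against that of arrays 1 and 2, a split chosen because the arrays carry the numbers 1 to 4, not because the labels name a batch, and added after the data were seen. H2bc4 was higher on arrays 3 and 4 in every group, by between 0.87 and 1.15. Its Het draining arrays read 1109, 843, 1813 and 1908, and its KO draining arrays 1419, 619, 1942 and 2230. The non-draining arrays read 1087, 993, 1788 and 2017 in Het and 1426, 852, 1943 and 2358 in KO cells, so arrays 3 and 4 were above arrays 1 and 2 whatever the group.

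H3c15 and H1f2 followed the array number in the same way, by a mean of 0.73 each, and H4c9 by 0.50. In all, 11 of 30 histone genes (36.7%) were higher on arrays 3 and 4 in all 4 groups, where 15.97% of all genes were, and 4 histone genes (13.3%) were lower in all 4, where 20.9% of all genes were. A mean difference of at least 0.5 in favour of either pair was found for 4 histone genes (13.3%) and for 2.96% of all genes. H1f2, H2bc4 and H2bc21 are known to also give polyadenylated mRNA outside S phase, and H2bc21, at 0.15, was of both signs among the groups. H3c4 and H2bc3, at 0.24 and 0.01, were less tied to the number, and how the RNA was primed for labelling is not given in the sources used here.

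**Figure D3:**
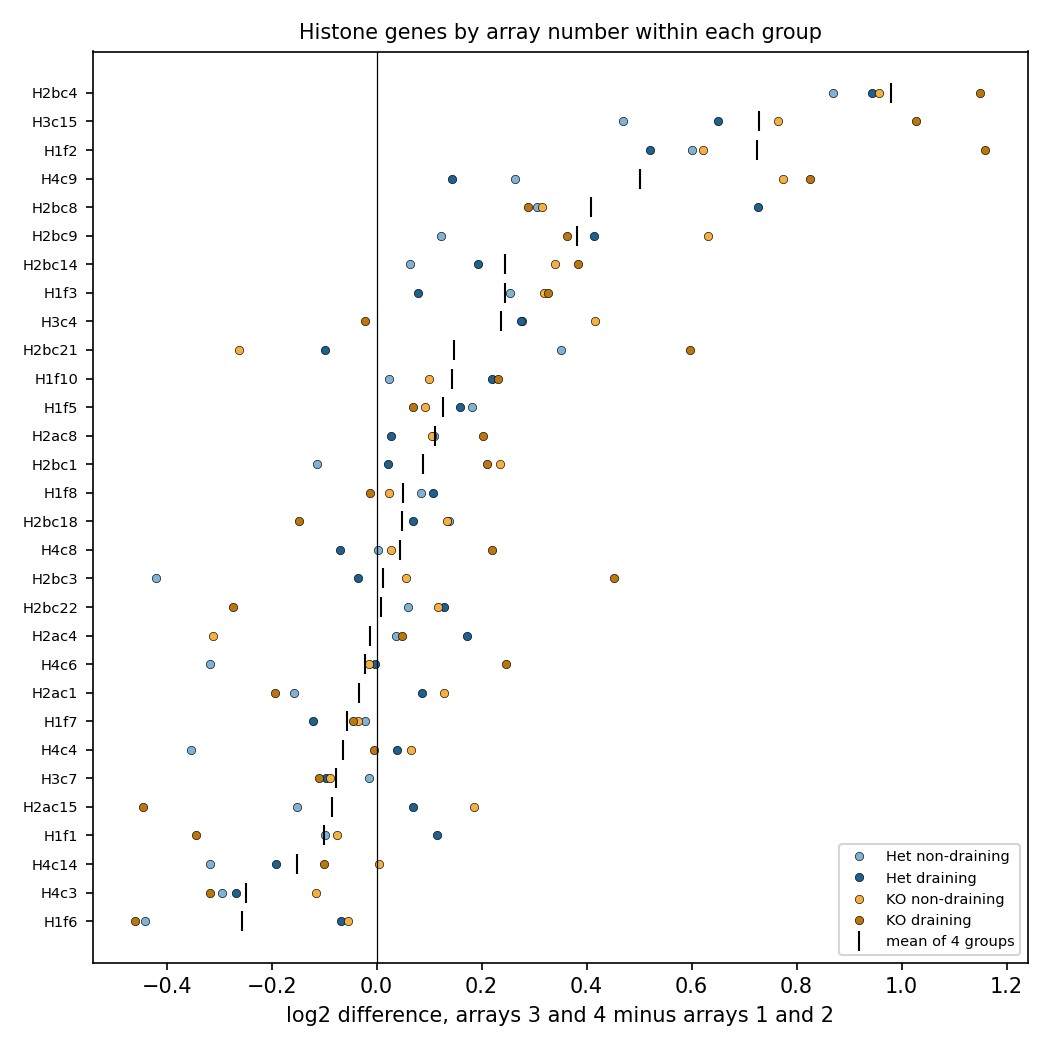
Mean of arrays 3 and 4 minus mean of arrays 1 and 2 on the log2 scale (horizontal axis) for each of the 30 histone genes (vertical axis); points are the 4 groups and the bar is their mean. H2bc4 lies between 0.87 and 1.15 in all groups, and H4c3 and H1f6 lie below 0 in all groups.

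With the array pairs as a fixed block, H3c4 had an adjusted p in limma of 0.206 between genotypes in the non-draining node and 0.289 between nodes in Het cells. Within arrays 1 and 2 the H3c4 node difference in Het cells was 0.77 ± 0.20, and within arrays 3 and 4 it was 0.77 ± 0.14. Between genotypes in the non-draining node it was 0.69 ± 0.20 and 0.83 ± 0.14. The H4 median of draining minus non-draining in Het cells was 0.30 on arrays 1 and 2 alone, against 0.40 on arrays 3 and 4 alone. Between genotypes in the non-draining node it was 0.11 and 0.36.

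Most histone genes share sequence with each other, and 26 further probe sets carried several symbols with at least 1 histone gene of the rule. Of 70 RefSeq genes with such symbols, 36 were read only by these shared probe sets and 4 were not listed. They were fitted with every one of 35556 probe sets as a row of its own, an analysis added after seeing the data. None was called (0% of 35556 probe sets), 2 pairs held identical values, and the sets of a class read overlapping transcripts, so they are not independent of each other or of the genes above.

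All 10 shared H3 probe sets were higher in draining than in non-draining Het cells, by between 0.46 and 0.64, with a median of 0.53 and an unadjusted limma p under 0.05 for all 10 (2.01% of probe sets were higher at that p). All 10 list the same 12 H3 genes, and 1 of them read 248, 338, 306 and 292 on the Het draining and 272, 150, 193 and 168 on the Het non-draining arrays. The KO arrays read 355, 207, 241 and 242 in the draining and 202, 207, 240 and 262 in the non-draining node. Het non-draining array 1 lay within the range of the draining arrays, so groups overlapped, as they did for all 10. The probe set of H3c4 alone had its lowest value of all arrays, 33.1, on that array. In KO cells the median node difference of the shared H3 sets was 0.17.

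Of the 6 shared H4 probe sets, 5 were lower in KO than in Het cells of the draining node without overlap (0.858% of probe sets), with a class median of -0.15. These 5 list the same 11 H4 genes, and they were higher in draining than in non-draining Het cells, the class median being 0.30. The probe set of H4c17 and H4c11 alone went the other way, with 0.63 ± 0.29 between genotypes in the draining node and -0.26 ± 0.29 between nodes in Het cells, and its values were dim, between 28.6 and 123. The 7 shared H2B sets had a median node difference in Het cells of 0.23 and the 2 shared H2A sets 0.20. The probe set of H1f4 and H2bc6 was higher in KO draining cells by 0.27 ± 0.12. In the non-draining node all 26 shared probe sets were higher in KO than in Het cells, with a median of 0.19, and 24 of 26 had a negative interaction.

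Genes that make and process histone mRNA had small median differences. Of 27 genes listed for this step, 26 were measured, and none was called in any comparison. Their medians were 0.09 between nodes in Het cells (19 higher), -0.01 in KO cells, -0.05 between genotypes in the draining node and 0.05 in the non-draining node (19 higher). Of all genes, 52.8% were higher in the first of these comparisons and 51.9% in the last. Slbp, which binds the stem-loop, had an interaction of -0.26 ± 0.18, and Lsm11, a subunit of the U7 particle that cuts histone mRNA, one of -0.25 ± 0.16. Nfyc, a subunit of NF-Y that binds CCAAT boxes, differed by -0.25 ± 0.11 between genotypes in the draining node. It was the only one of the list with an unadjusted limma p under 0.05 there (1.7% of all genes were lower at that p). Rnu7, the RNA of the U7 particle, differed by -0.40 ± 0.19 between nodes in Het cells and by -0.39 ± 0.19 in KO cells. Over both genotypes Rnu7 differed by -0.39 ± 0.14, at a mean intensity between 7.65 and 11.2.

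Histone chaperones carry new histones to DNA. Of 24 measured genes of 27 listed, 18 were higher in draining than in non-draining Het cells, where 52.8% of all genes were. Their median was 0.11, and none was called. At an unadjusted limma p under 0.05 were 5, all higher (1.93% of all genes). Chaf1b, a subunit of the assembly factor CAF-1, differed by 0.51 ± 0.14, Hirip3, a partner of HIRA, by 0.47 ± 0.14, Daxx, a chaperone of H3.3, by 0.37 ± 0.12, and Nasp, which holds free H3 and H4, by 0.36 ± 0.14. In KO cells the median was 0.06 with no such p (1.14% of all genes were higher at that p and 0.973% lower). Replacement and variant histones outside the rule, of which 10 were measured, had medians of 0.00 between nodes in Het cells and -0.10 in KO cells. H2az1, the replacement H2A.Z, read between group means of 6670 and 7181 and differed by -0.08 ± 0.09 between nodes in Het cells.

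The genes of DNA replication and of mitosis were read beside the histones. Of 32 measured S phase genes, 30 were higher in draining than in non-draining Het cells (median 0.27). Of 19 mitosis genes all 19 were (median 0.43), where 52.8% of all genes were, again with none called. Prim1, a primase subunit, differed by 0.72 ± 0.19, Rrm2, a subunit of ribonucleotide reductase, by 0.70 ± 0.20, and Top2a, the mitotic topoisomerase, by 0.59 ± 0.15. In KO cells 22 of the 32 S phase genes were higher in the draining node (50.7% of all genes). The S phase and mitosis medians there were 0.03 and 0.00. The Rrm2 difference was 0.50 ± 0.20 between nodes in KO cells and 0.60 ± 0.14 over both genotypes, also not called. Between genotypes, 27 of 32 S phase genes were lower in KO cells of the draining node (median -0.12), where 49.1% of all genes were higher. In the non-draining node 26 were higher (median 0.11), as were 51.9% of all genes. For mitosis genes the medians were -0.25 and 0.15 in the draining and non-draining node. In the same order, between nodes in Het and KO cells and between genotypes in the draining and non-draining node, the medians were 0.12, 0.02, -0.01 and 0.13 for all 30 histone genes and 0.36, -0.08, -0.17 and 0.24 for the 6 H4 genes. The interaction was negative for 29 of 32 S phase genes (median -0.24) and for 18 of 19 mitosis genes (median -0.41). It was negative for all 6 H4 genes as well (median -0.36), where 47.7% of all genes were positive. The lists share arrays and comparisons with the histone genes, so the values are set side by side with no test between them, and in bulk samples fewer cells of a type and less RNA per cell cannot be told apart.

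Markers of other cells differed in these comparisons too, with none called. All 10 measured T cell markers were lower in draining than in non-draining Het cells (median -0.40, 52.8% of all genes higher). All 10 were higher in KO than in Het cells of the draining node (median 0.26, 49.1% of all genes higher). Both medians were opposite in sign to those of the H4 genes. The 10 markers were also lower in KO than in Het cells of the non-draining node, with a median of -0.33. Between nodes in KO cells all 10 were higher on the draining side (median 0.25, 50.7% of all genes higher). The interaction was positive for all 10 (median 0.70, 47.7% of all genes positive). These medians too were opposite in sign to those of the H4 genes. T cell markers summed to between 1073 and 2038 on the Het draining, 1266 and 2358 on the Het non-draining, 1246 and 2538 on the KO draining and 828 and 2195 on the KO non-draining arrays. All 11 measured B cell markers were higher in KO than in Het cells of the non-draining node (median 0.46), as the H4 genes were. There 51.9% of all genes were higher. In the draining node 10 of the 11 were also higher in KO cells (median 0.20, 49.1% of all genes higher). The H4 genes differed there, with 5 of 6 lower. Averaged over nodes, all 11 B cell markers were higher in KO cells (median 0.36, 50.8% of all genes higher). Of these, 6 had an unadjusted limma p under 0.05 (1.75% of all genes were higher at that p). The B cell markers had a median of 0.00 between nodes in Het cells. They summed to between 508 and 924, 500 and 866, 637 and 794, and 658 and 1055 on the same groups of arrays. No defining T or B cell marker was at 0, and the part of these cells in the histone values was not tested. Of the 15 cDC1 markers, 14 were higher in KO than in Het cells of the non-draining node (median 0.21, 51.9% of all genes higher). There 4 had an unadjusted limma p under 0.05, all higher (1.3% of all genes). In Het cells 12 of the 15 were higher in the draining than in the non-draining node (median 0.12, 52.8% of all genes higher). None was called. The interaction was negative for 13 of the 15 cDC1 markers (median -0.25, 47.7% of all genes positive). The cDC1 marker medians thus had the signs of the H4 medians in these 3 comparisons, and their part in the histone values was not tested.

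**Figure D4:**
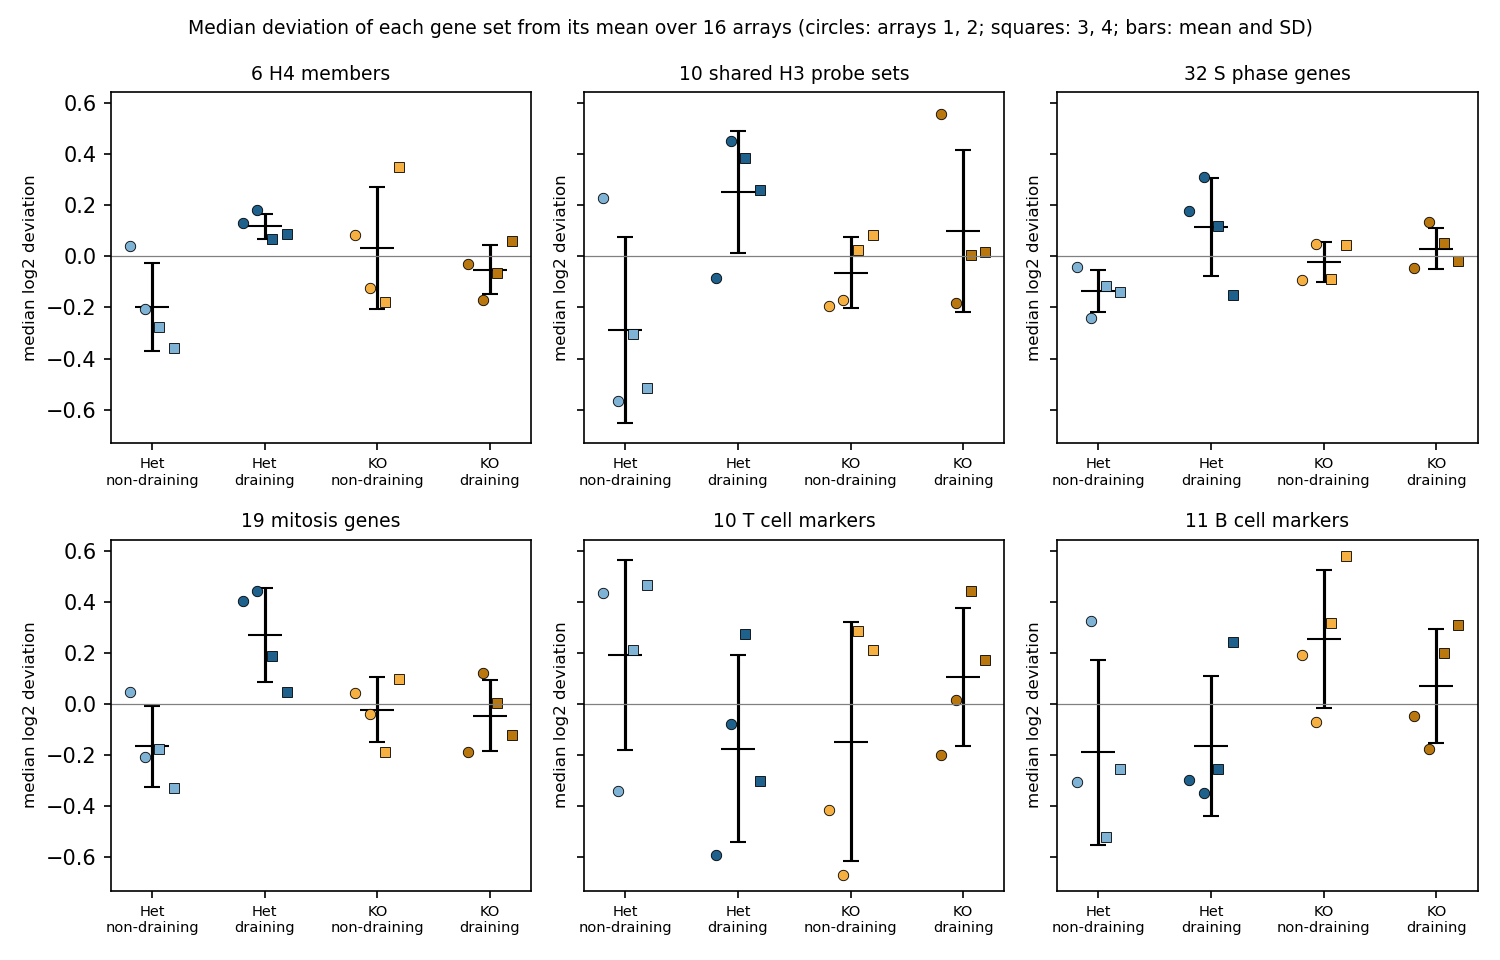
Median log2 deviation of 6 gene or probe sets from their own means over the 16 arrays (vertical axis) on each array of the 4 groups (horizontal axis); circles are arrays 1 and 2, squares arrays 3 and 4, and bars the mean and SD of 4 arrays. Arrays 2 to 4 of the Het non-draining group have H4 deviations of -0.20, -0.28 and -0.36, below all Het draining arrays, while T and B cell markers spread widely within each group.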

How the data were processed

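RNA of cDC1 sorted from digested inguinal nodes was measured on 16 Affymetrix arrays of the Mouse Gene 1.0 ST design. The deposited table holds linear intensity values from 3.33 to 16300 for 35556 probe sets, made by the authors with RMA, as named in the submitters' processing notes (the software is not given in the sources used here). This step gives all arrays one distribution and compresses dim probe sets, so dim histone genes are understated. Groups and replicate numbers came from the labels.

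Values were tested as log2(intensity + 1). Of the probe sets, 21789 carried 1 symbol, 1621 several and 12146 none; the brightest single-symbol probe set stood for each of 19938 genes. The test was two-sided limma (3.58.1, R 4.3.3), 1 fit of the 4 groups with 12 residual degrees of freedom, with Benjamini-Hochberg adjustment over all genes at 0.05. Single genes were also tested with exact two-sided permutations of arrays. The fit was tested on simulated data. Errors after ± are standard errors. Python 3.11.15 and matplotlib 3.10.9 drew the plots.

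The members and lists were chosen with earlier results of these data known. Genes named with every array were the 4 histone genes of smallest p in each comparison and those whose groups did not overlap (up to 6); H2bc4 and 1 shared H3 probe set were named after their values were seen. Named with a difference were the extremes of each class, and of other lists up to 4 genes of smallest p; H2az1, H3c7, H3c15, H2bc14, H1f5 and H4c9 were partly added for their levels. Same-numbered draining and non-draining Het arrays deviated together (correlations 0.24 to 0.37 over genes), other group pairs less evenly (from -0.03 to 0.54), and the labels do not say that a number marks a mouse. Alternatives changed the scale, array centring, the filter on dim probe sets, the probe set per gene, blocks, the arrays used, the variance model and single arrays.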

Additional observations from a re-analysis of the deposited data

Results flagged for a closer look

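H2bc22, an H2B gene, had both single arrays that stood far from the others of their group, among 44 groups of 4 arrays examined; about 1 in 20 such groups is expected to be picked by chance. KO draining array 2 read 6.178 on the log2 scale (intensity 71.4), where the other 3 arrays lay between 5.569 and 5.614. Het non-draining array 3 read 5.469 (intensity 43.3), where the other 3 lay between 5.34 and 5.359. The gap was 0.926 and 0.852 of the group's range, above Dixon's critical value. The first of them enters the H2bc22 difference between genotypes in the draining node, which was 0.32 ± 0.10 without it.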

How the results depend on the processing

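No histone gene was called under any alternative. Of the 77 differences of 11 named histone genes in 7 comparisons, 53 kept their sign under all alternatives, and the 24 that did not were at most 0.18 in size in the fit reported. With 1 array left out, 18 turned in sign somewhere, among them H3c4 between genotypes in the draining node (-0.07 to 0.13) and H4c3 between nodes in KO cells (-0.10 to 0.13), and 49 of the 77 moved by over 1.5 times or turned. Among those that moved were H4c8 between genotypes in the draining (-0.40 to -0.19) and non-draining node (0.19 to 0.45), H4c14 in the non-draining node (0.13 to 0.37) and, between nodes in KO cells, H4c6 (-0.39 to -0.13) and H1f3 (0.13 to 0.37). With only arrays 3 and 4, the median over the 30 genes moved from 0.13 to 0.23 for KO minus Het in the non-draining node and from -0.08 to -0.27 for the interaction; the cause was not tested. That setting called 4, 2, 1 and 5 other genes between genotypes (draining, then non-draining node), between nodes in KO cells and between genotypes over both nodes. With the replicate number as a block the medians were -0.01 and 0.13 between genotypes in the draining and non-draining node and 0.12 and 0.02 between nodes in Het and KO cells, and no histone gene gained a call; 1 other gene was called for KO minus Het over both nodes. With 1 array left out at a time the median over the 30 genes lay between -0.05 and 0.03 for KO minus Het in the draining node, 0.06 and 0.17 in the non-draining node, and 0.07 and 0.16 between nodes in Het cells. The number of arrays limits the precision.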
